A study of Mus musculus with 6 samples.

Results

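The transcripts described here are those of the nuclear genes for oxidative phosphorylation in B16F10, a mouse melanoma cell line. Members were the genes in the expression table whose names begin with Nduf followed by a, b, c, s or v, with Uqcr, with Cox and a digit from 4 to 8, or with Atp5, plus Sdha, Sdhb, Sdhc and Sdhd. Pseudogene names ending in -ps were left out, and a member needed a level of at least 1 TPM (a transcript level scaled by length and library total) in at least 3 of the 6 libraries. The rule was met by 86 of 51912 genes: 45 of complex I, 4 of complex II, 8 of complex III, 13 of complex IV and 16 of complex V. The 3 libraries of the WT group carry the genotype wild type (replicates 1, 2 and 3), and the 3 libraries of the A10KO group carry the genotype ANXA10-/- (replicates 1, 13 and 14). The gene removed encodes annexin A10, from a family of proteins that bind membranes when calcium is present. No treatment, time or age is named in the labels. The labels do not say what the replicate numbers mark (clones, cultures or repeat preparations). Each p-value therefore reflects no more than library-to-library spread, part or all of which may be technical. The mean level of the members ranged from 8.52 to 3671 TPM, with a median of 287 TPM against 16.1 TPM for all tested genes.

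The inner membrane of mitochondria holds an electron transport chain and an ATP synthase. Complex I oxidises NADH and complex II oxidises succinate, both pass electrons to ubiquinone, complex III passes them on to cytochrome c, and complex IV reduces oxygen. Complexes I, III and IV pump protons out of the matrix, and complex V uses their return to make ATP. Complexes I, III, IV and V combine subunits from the nucleus with subunits from mitochondrial DNA, whereas all subunits of complex II are nuclear. Tumour cells use this chain for ATP and for recycling NADH, beside glycolysis. The transcription factors NRF1 and GABP are known regulators of these nuclear genes, together with coactivators such as PGC-1alpha.

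Promoter sequence, which the rule did not use, is shown for motifs that stood in some of the members' windows. Each motif was missing from most of the members' windows. A RefSeq window of GRCm38.p6, from 250 bases before to 50 bases after the start of the gene, was matched for 74 of the 86 members. The NRF1 motif GCGCANGCG stood on either strand for 22 of these 74 members (29.7%). The shares were 7.03% of all genes with a window and 16.3% of tested genes with a window. A gene with more than 1 window counted once, if any window held the motif. The YY1 motif AAGATGGC stood in 12 of 74 (16.2%), against 3.19% of all genes and 5.69% of tested genes. The ETS motif CCGGAAGT, to which GABP binds, stood in 5 of 74 (6.76%), against 4.31% and 9.91%. Motifs were counted separately, so 1 gene can count for more than 1. The NRF1 motif was found for 10 of 40 matched members of complex I, 2 of 3 of complex II and 2 of 5 of complex III. For complexes IV and V it was found for 1 of 11 and 7 of 15. Of the 12 members with the YY1 motif, 9 belonged to complex I and 3 to complex V. A match is a stretch of letters, and binding was not measured. For each complex with an NRF1 motif lying wholly before the start of the gene, the member with the highest mean level among those with such a motif is shown, with the motif in capitals and 30 bases on either side, read 5′ to 3′ on the strand of the gene. The motifs of Uqcr11 and Uqcrc1 in complex III and of Atp5g3 and Atp5o in complex V reach or follow the start, so these genes are not shown. The first sequence is from complex I (chr6:24527678-24527746, minus strand), the second from complex II (chr9:50603890-50603958, minus strand), the next from complex IV (chr5:115349037-115349105, minus strand) and the last from complex V (chr11:115420022-115420090, minus strand).
Ndufa5: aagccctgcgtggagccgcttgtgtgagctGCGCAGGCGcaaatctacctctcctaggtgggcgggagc
Sdhd: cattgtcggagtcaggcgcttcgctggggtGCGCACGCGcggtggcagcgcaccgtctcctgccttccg
Cox6a1: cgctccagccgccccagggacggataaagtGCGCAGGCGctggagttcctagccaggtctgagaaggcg
Atp5h: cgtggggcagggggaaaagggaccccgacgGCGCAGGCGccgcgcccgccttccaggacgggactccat
Of these, the Ndufa5, Cox6a1 and Atp5h motifs carry the same letters, and that of Sdhd has another letter at the position written N in the motif. Values of these 4 genes are given with their complexes.

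Per library, between 11889 and 12236 genes reached 1 TPM, and 12068 genes entered the test. The spans of 22 members overlap another tested gene, among them Ndufa2, Ndufa3, Ndufb5, Ndufs1, Uqcrh, Cox4i1, Atp5a1 and Atp5d. Since no strand setting is given, reads from bases that such pairs share cannot be told apart. Spans include introns, and overlap of exons was not tallied. Depth is unknown because TPM does not keep it, so no counting interval is given. Anxa10 was listed at 0 TPM in 6 of 6 libraries, WT included, and so gave no check of the labels. Of 11 melanocyte lineage markers, 11 were tested, with a summed level between 9124 and 11538 TPM over the libraries. For leukocytes 8 of 11 table entries were under 1 TPM in every library, and the summed level was 4.21 to 7.27 TPM in WT and 1.84 to 3.70 TPM in A10KO. The keratinocyte or epithelial markers summed to at most 0.76 TPM, the fibroblast markers to between 4.58 and 9.99 TPM, and the 6 endothelial markers to 14.2 to 23.5 TPM in WT and 21.6 to 38.1 TPM in A10KO. Only 2 endothelial markers were tested, and they differed in direction: the log2 change was 1.39 for Tek (adjusted p = 0.297) and -1.33 for Vwf (adjusted p = 0.521). In such bulk samples fewer cells of a type and less RNA per cell cannot be told apart.

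The nuclear oxidative phosphorylation genes stood at similar mean levels in A10KO and WT. Across the 86 members the median log2 change was -0.06, against -0.04 over all tested genes and -0.08 over the 1345 tested genes whose mean reached 100 TPM. Log2 changes are A10KO minus WT on the log2(TPM + 1) scale, which understates changes of low genes, and are given ± their standard error. The fitted change stayed within 1.2-fold for 74 of 86 members (86.0%), against 66.0% of all tested genes and 72.6% of those whose mean reached 100 TPM. By limma, 0 of 86 members passed an adjusted p of 0.05 over all tested genes, where 5 of 12068 passed (0.0414%). The lowest adjusted p among members was 0.55. At an unadjusted p under 0.05, 2 members were lower (2.33%, background 6.27%) and 0 were higher (background 2.56%). The 3 A10KO values lay below all 3 WT values for 11 members (12.8%, background 11.5%) and above them for 2 (2.33%, background 5.61%). The share below without overlap was near the background, the other shares were under it, and none was tested against it. Leaving out 1 library changed the unadjusted counts: lower members were 0 without WT replicate 2, 1 without WT replicate 1 or 3, 6 without A10KO replicate 1 and 4 without A10KO replicate 14, and higher members were 1 without A10KO replicate 13 and 2 without A10KO replicate 14.

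The members differed more among the A10KO libraries than among the WT libraries. The median SD of log2(TPM + 1) over the members was 0.06 in WT and 0.25 in A10KO, with the A10KO SD above the WT SD for 78 of 86 (90.7%). Over all tested genes the medians were 0.14 and 0.29, and the A10KO SD was larger for 78.2%. Where the mean level was 100 TPM or more, the medians were 0.08 in WT and 0.25 in A10KO, and the share was 87.3%. Relative to the WT mean, the members' median difference was 0.06 in A10KO replicate 1, -0.14 in replicate 13 and -0.10 in replicate 14, on the log2(TPM + 1) scale. The same medians over all tested genes were -0.12, 0.02 and -0.03, and over those whose mean reached 100 TPM they were -0.05, -0.17 and 0.01. The highest of the 6 values came from A10KO replicate 1 for 37 members (43.0%, against 13.9% of all tested genes), and the lowest from A10KO replicate 13 for 39 members (45.3%, against 24.2%). Among tested genes whose mean reached 100 TPM, however, replicate 13 was lowest for 45.7%, close to the share among members, and replicate 1 was highest for 23.2%. The share of all TPM taken by the members was 3.96%, 3.98% and 4.04% in WT and 4.40%, 3.92% and 3.73% in A10KO replicates 1, 13 and 14. As a share of TPM outside the transcripts with mt- names it was 4.23%, 4.26% and 4.32% in WT and 4.78%, 4.59% and 4.03% in A10KO, so that replicate 13 lay below WT on the first measure and above WT on the second.

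**Figure D1:**
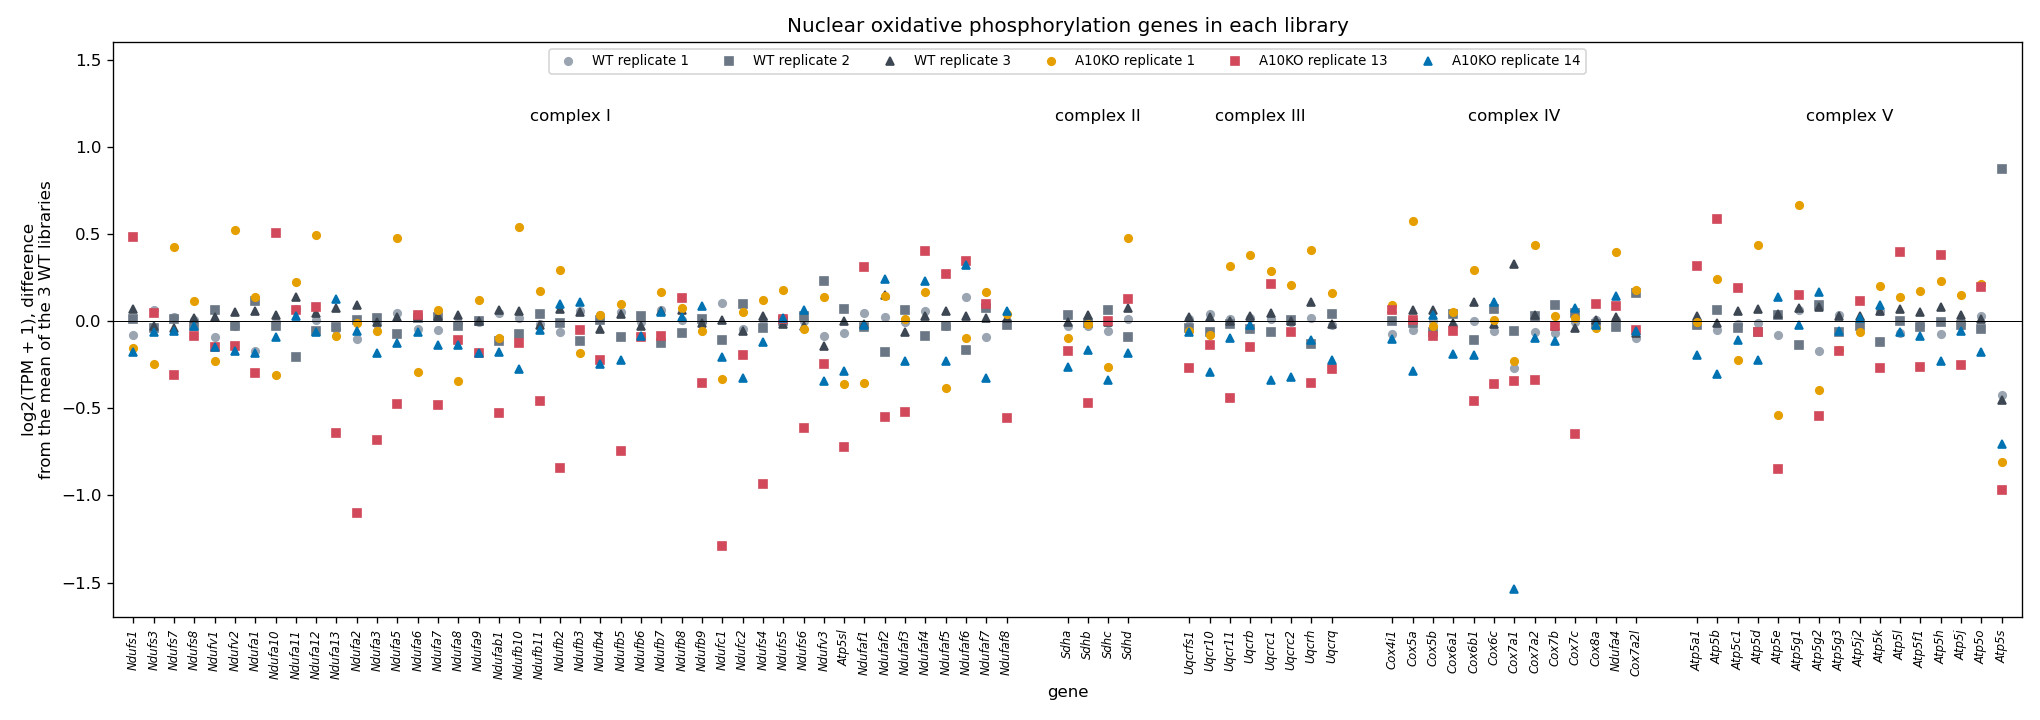
Each point is one gene in one library; the vertical axis is log2(TPM + 1) minus the mean of the 3 WT libraries and the horizontal axis lists 85 of the genes by complex. The WT points lie close to 0 for most genes (median SD 0.06), whereas the A10KO points spread to both sides (median SD 0.25), with replicate 1 often highest and replicate 13 often lowest.

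Below, 3 values after WT are replicates 1, 2 and 3, and 3 values after A10KO are replicates 1, 13 and 14. Complex I is the largest complex of the chain, and its 45 members comprise 7 nuclear core subunits, 29 accessory subunits and 9 assembly factors. The core subunits carry the flavin and the iron-sulfur clusters that take electrons from NADH to ubiquinone. Their mean levels ran from 123 to 199 TPM, and their median log2 change was 0.00, with 3 below 0 and 4 above. Ndufs1, a core subunit that holds iron-sulfur clusters, stood at 113, 120.5 and 125 TPM in WT and 107, 168 and 106 TPM in A10KO. Replicate 13 was at least 1.25-fold above all 5 other libraries, while the remaining A10KO libraries lay below WT. Ndufv2, a core subunit with an iron-sulfur cluster at the NADH site, stood at 151, 151 and 159.8 TPM in WT and 222, 139 and 136 TPM in A10KO. Ndufs7, the subunit next to the ubiquinone site, stood at 191, 190.2 and 184 TPM in WT and 253, 152 and 181 TPM in A10KO. For Ndufv2 and Ndufs7 it was replicate 1 that exceeded every other library by at least 1.25-fold. Ndufv1, the core subunit at the flavin, stood at 128, 143 and 139 TPM in WT and 117, 123 and 123 TPM in A10KO (log2 change -0.17 ± 0.11, adjusted p = 0.683). It lay below WT in 3 of 3 A10KO libraries, with a narrow gap between the groups. Ndufs3 stood between 139 and 172 TPM in all 6 libraries and Ndufs8 between 148 and 170.2 TPM, and for both the groups overlapped.

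The 29 accessory subunits surround the core and stabilise it. Their mean levels ran from 42.9 to 569 TPM and their median log2 change was -0.12, with 22 below 0 and 7 above. The highest mean was that of Ndufa12, which sits near the site of NADH oxidation, at 534, 512 and 549 TPM in WT and 747, 562 and 508 TPM in A10KO (log2 change 0.17 ± 0.16, adjusted p = 0.784). Replicate 1 stood above the rest, and replicates 13 and 14 lay around the WT values. The lowest mean was that of Ndufb4, a membrane arm subunit, at 46.2, 45.2 and 43.5 TPM in WT and 46.1, 38.4 and 37.7 TPM in A10KO (log2 change -0.14 ± 0.13, adjusted p = 0.777). Replicates 13 and 14 lay below WT and replicate 1 within it.

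In replicate 13, 17 of the 86 members lay at least 1.25-fold below every other library (19.8%), and 15 of these 17 belonged to complex I. The same held for 10.8% of all tested genes and 18.9% of those whose mean reached 100 TPM. Of the 15, 12 were accessory subunits (of 29), 3 were assembly factors (of 9) and 0 were core subunits (of only 7). The median difference of replicate 13 from the WT mean was -0.25 for accessory subunits and -0.09 for core subunits on the log2 scale. Transcripts of core subunits ran from 983 to 2661 bases and those of accessory subunits from 419 to 4371 bases. In replicate 13 the median difference over all tested genes was -0.28 under 700 bases and 0.07 at 1500 bases or more. The contrast between subunit classes was not matched for length and was not tested. Ndufa2, the member with the largest SD within A10KO after Cox7a1, stood at 248, 267 and 284 TPM in WT and 264, 124 and 256 TPM in A10KO (log2 change -0.39 ± 0.28, adjusted p = 0.741). In replicate 13 it was well below the other 5 libraries, which lay close together. Ndufc1, a small membrane subunit, stood at 288, 249 and 270.0 TPM in WT and 213, 109 and 232 TPM in A10KO (log2 change -0.61 ± 0.27, adjusted p = 0.568). Here all A10KO libraries lay below WT, replicate 13 furthest. Ndufs4, whose loss is a known cause of complex I deficiency, stood at 63.9, 61.9 and 65.0 TPM in WT and 69.1, 32.7 and 58.4 TPM in A10KO, and Ndufb5, a membrane arm subunit, stood at 233, 211 and 232 TPM in WT and 241, 134 and 193 TPM in A10KO. For both genes replicates 13 and 14 were below WT and replicate 1 was above it. Ndufa5, whose promoter is printed above, stood at 396, 364 and 389.7 TPM in WT and 534, 276 and 351 TPM in A10KO, and it was at least 1.25-fold beyond all other libraries at both ends, highest in replicate 1 and lowest in replicate 13. Cox7a1, described with complex IV, was the only other member with a library set apart at each end. Against this direction Ndufa10, an accessory subunit, was highest in replicate 13, at 128, 127 and 132 TPM in WT and 104, 184 and 121 TPM in A10KO. The other accessory subunits of the 12 were Ndufa3, Ndufa7, Ndufa13, Ndufab1, Ndufb2, Ndufb11 and Ndufs6, with 67.1 to 209.6 TPM in replicate 13 and 99.5 to 357 TPM elsewhere. Of the accessory subunits, Ndufa3, Ndufa8, Ndufb6 and Ndufc1 had all A10KO values below all WT values.

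Assembly factors help build complex I and are not part of the finished enzyme. Their mean levels were lower than those of the subunits, from 8.52 to 64.2 TPM, with a median of 24.9 TPM against 237 TPM for the 36 subunits. Atp5sl, named for a likeness to an ATP synthase protein and known as DMAC2, a factor for the distal membrane arm of complex I, stood at 9.45, 10.5 and 9.98 TPM in WT and 7.54, 5.64 and 7.99 TPM in A10KO. It lies on GRCm38 chromosome 7, 25619414 to 25625551. All A10KO values were below all WT values (log2 change -0.46 ± 0.18, adjusted p = 0.55, unadjusted p = 0.0403). Its mean level was the lowest of any member, so it also lay closest above the TPM minimum. Ndufaf4 was the only complex I member above WT in 3 of 3 A10KO libraries, at 23.4, 21.1 and 23.0 TPM in WT and 25.3, 30.0 and 26.6 TPM in A10KO (log2 change 0.27 ± 0.14, adjusted p = 0.624). Ndufaf1, which acts in building the membrane arm, stood at 21.7, 20.5 and 20.7 TPM in WT and 16.2, 26.2 and 20.6 TPM in A10KO, lowest in replicate 1 and highest in replicate 13. Ndufaf2 and Ndufaf8, on the other hand, were lowest in replicate 13, at 43.7 TPM each, with other libraries at 56.7 to 76.3 TPM and 63.9 to 67.5 TPM.

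Complex II, succinate dehydrogenase, also belongs to the citric acid cycle. Of its 4 members 3 had a log2 change below 0, and the median was -0.19. Sdhb, the iron-sulfur subunit, had the highest mean at 699.6, 707 and 731 TPM in WT and 704, 513 and 635 TPM in A10KO (log2 change -0.22 ± 0.14, adjusted p = 0.714). Replicates 13 and 14 lay below all WT libraries and replicate 1 within their range. Sdha, the flavin subunit, had the lowest mean at 144, 151 and 147 TPM in WT and 137, 131 and 122 TPM in A10KO (log2 change -0.18 ± 0.11, adjusted p = 0.672). It was the only complex II member whose groups did not overlap. Sdhc and Sdhd anchor the enzyme in the membrane. Sdhc stood at 149, 162 and 155 TPM in WT and 129, 156 and 123 TPM in A10KO, and Sdhd, whose promoter is printed above, stood at 260.3, 242 and 272 TPM in WT and 359, 282 and 227 TPM in A10KO. The anchors differed in the library that stood out: Sdhd was at least 1.25-fold above all others in replicate 1, where Sdhc was below WT.

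Complex III, cytochrome bc1, has 8 members here, and the median of their log2 changes was -0.07. Uqcr10, a small subunit, had the highest mean at 1518, 1415 and 1501 TPM in WT and 1396, 1345 and 1206 TPM in A10KO (log2 change -0.17 ± 0.13, adjusted p = 0.748). Uqcrfs1, the Rieske iron-sulfur protein and the only catalytic subunit among the members, stood at 204, 196 and 205 TPM in WT and 194, 167 and 193 TPM in A10KO (log2 change -0.13 ± 0.11, adjusted p = 0.772). For both genes the 3 A10KO values lay below the 3 WT values, with gaps under 20 TPM to the nearest WT value. Uqcrc2, one of the large matrix-side subunits, had the lowest mean at 183, 184 and 184 TPM in WT and 213, 176 and 147 TPM in A10KO (log2 change -0.06 ± 0.15, adjusted p = 0.93), with WT values within 2 TPM of each other and A10KO values on both sides. In replicate 1, 6 of the 8 members had their highest value. Uqcrh, the hinge protein near cytochrome c1, stood at 1085, 979 and 1157 TPM in WT and 1423, 837 and 995 TPM in A10KO, and Uqcrb, a ubiquinone-binding subunit, stood at 472, 452 and 476 TPM in WT and 607, 421 and 459 TPM in A10KO. Replicate 1 was highest and replicate 13 lowest for both. Uqcr11, lowest in replicate 13 by at least 1.25-fold, stood at 689.8, 675 and 684 TPM in WT and 851, 503 and 639 TPM in A10KO. Uqcrc1 and Uqcrq, the remaining members, ranged from 265 to 409.5 TPM and from 652 to 883 TPM. Cyc1, the cytochrome c1 subunit outside the name rule, stood at 559, 512 and 582 TPM in WT and 563, 565 and 524 TPM in A10KO, with all A10KO values inside the WT range.

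Complex IV, cytochrome c oxidase, had 13 members with a median log2 change of -0.03, which reached 0.03 under other scalings, and 7 were below 0 and 6 above. Its nuclear subunits surround the mitochondrially encoded catalytic core, and several exist as alternative isoforms of different genes. Ndufa4, first assigned to complex I and now counted with complex IV, had the highest mean at 1639, 1595 and 1656 TPM in WT and 2149, 1728 and 1802 TPM in A10KO (log2 change 0.21 ± 0.14, adjusted p = 0.718). It lies on GRCm38 chromosome 6, 11900292 to 11907497. All 3 A10KO values were above all 3 WT values, and replicate 1 was furthest above. Cox7a1, the isoform of heart and skeletal muscle, had the lowest mean at 23.3, 27.1 and 35.8 TPM in WT and 24.0, 22.1 and 9.08 TPM in A10KO (log2 change -0.70 ± 0.35, adjusted p = 0.618). It was highest in WT replicate 3 and lowest in A10KO replicate 14, each by at least 1.25-fold, and the groups overlapped. Cox5a, a subunit on the matrix side, stood at 511, 526 and 553 TPM in WT and 788, 531 and 434 TPM in A10KO, and Cox7c, a small membrane subunit, stood at 679, 703 and 662 TPM in WT and 690.3, 434 and 717 TPM in A10KO. Cox5a was highest in replicate 1, Cox7c was lowest in replicate 13, and neither gene showed both features. Cox5b and Cox6c ranged from 790.2 to 873 TPM and from 664 to 920 TPM, with overlapping groups.

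In each alternative pair the broadly expressed isoform was the one with a high level. Cox4i1 stood at 1417, 1489 and 1566 TPM in WT and 1589, 1555 and 1387 TPM in A10KO and Cox4i2, an isoform known from lung and induced in low oxygen, at no more than 0.22 TPM in any library. Cox6a1 stood at 1580.2, 1658 and 1602 TPM in WT and 1672, 1550.0 and 1415 TPM in A10KO, while Cox6a2, the heart and muscle isoform, stood at 0, 0 and 0.22 TPM in WT and 1.94, 1.10 and 0.12 TPM in A10KO. Cox6b1 stood at 827, 765 and 889.8 TPM in WT and 1013, 601 and 722 TPM in A10KO, and Cox6b2, known from testis, was listed at 0 in all libraries. Cox8a stood at 1563, 1542 and 1565 TPM in WT and 1514, 1666 and 1530.2 TPM in A10KO, and Cox8b and Cox8c were listed at 0 in all libraries, as was Cox7b2 beside Cox7b at 573 to 662 TPM. Of the major isoforms, Cox8a differed least, with all 6 values between 1514 and 1666 TPM. Cox6a2 reached 1 TPM only in A10KO replicates 1 and 13 and so missed the minimum of 3 libraries. Ndufa4l2, a paralog of Ndufa4 induced in low oxygen, had the highest mean of the names under the TPM minimum, at 0.51, 3.60 and 0 TPM in WT and 0.42, 0.49 and 0.15 TPM in A10KO, with WT replicate 2 as the only library above 1 TPM.

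Cox7a1 was therefore the only muscle-type isoform among the members. Cox7a2, the broadly expressed isoform, stood at 440.4, 469 and 471 TPM in WT and 623, 363 and 431 TPM in A10KO, and replicate 1 lay at least 1.25-fold above the others. Cox7a2l, which helps join complexes III and IV, stood at 171, 205 and 175 TPM in WT and 207, 177 and 176 TPM in A10KO, with overlapping groups. The level of Cox7a1 as a percentage of that of Cox7a2 was 5.29%, 5.79% and 7.59% in WT and 3.85%, 6.07% and 2.11% in A10KO. Their promoters also differed in CpG content, with 20 CpG in the 300-base window of Cox7a2 and 7 in that of Cox7a1. The median was 20 CpG over the 74 matched members, 22 over tested genes and 7 over all genes with a window. For Cox6b2, Cox7b2 and Cox8b, listed at 0 here, the windows held 10, 10 and 2. A stretch of 120 bases is shown from each window (GRCm38.p6, chr9:79759854-79759973 on the minus strand for the first and chr7:30184051-30184170 on the plus strand for the second), with each CpG in capitals.
Cox7a2: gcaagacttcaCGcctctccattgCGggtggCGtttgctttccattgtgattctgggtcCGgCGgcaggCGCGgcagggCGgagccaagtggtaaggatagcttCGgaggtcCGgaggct
Cox7a1: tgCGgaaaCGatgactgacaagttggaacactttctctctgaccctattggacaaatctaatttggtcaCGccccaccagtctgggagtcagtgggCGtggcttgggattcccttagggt
These stretches hold 10 and 4 CpG. DNA methylation was not measured.

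**Figure D2:**
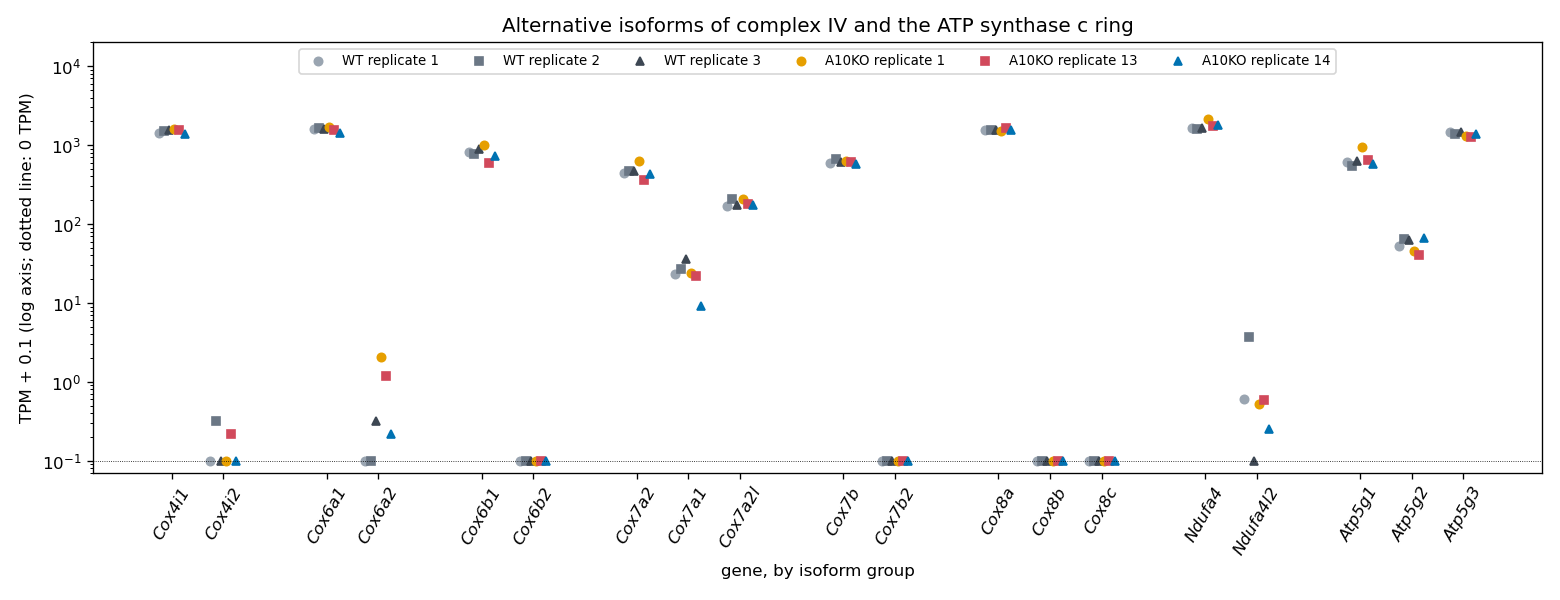
TPM + 0.1 in each of the 6 libraries on a log axis, for the isoform groups of complex IV and of the ATP synthase c ring, with the dotted line at 0 TPM. Cox7a1 lies at 9.08 to 35.8 TPM, between its major counterpart Cox7a2 at 363 to 623 TPM and the isoforms near or at 0.

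Complex V, the ATP synthase, had 16 members with a median log2 change of 0.02, 7 below 0 and 9 above. This median had no stable sign: it ranged from -0.07 to 0.07 under other settings and from -0.04 to 0.04 with 1 library left out. Its catalytic head is made of Atp5a1 and Atp5b. Atp5b, the beta subunit that holds the catalytic sites, had the highest level of all members at 3270.4, 3543 and 3366 TPM in WT and 4003, 5096 and 2748 TPM in A10KO (log2 change 0.17 ± 0.24, adjusted p = 0.847). It lies on GRCm38 chromosome 10, 128083273 to 128090391. The A10KO values lay on both sides of WT, replicate 13 at least 1.25-fold above all others and replicate 14 below all. Atp5a1, the alpha subunit, stood at 752, 744 and 769.9 TPM in WT and 753, 939 and 659.8 TPM in A10KO, with the same libraries highest and lowest. The central stalk turns within the head and consists of Atp5c1, Atp5d and Atp5e. Atp5c1 stood at 572, 564 and 602 TPM in WT and 496, 662 and 538 TPM in A10KO, Atp5d at 645, 623 and 682 TPM in WT and 880.2, 622 and 556 TPM in A10KO. Atp5e, the small epsilon subunit, stood at 824, 891 and 896 TPM in WT and 599.5, 482 and 958 TPM in A10KO (log2 change -0.42 ± 0.24, adjusted p = 0.666). Replicates 1 and 13 were far below WT and replicate 14 was above it, a pattern opposite to that of Atp5b. Atp5e as a percentage of Atp5b was 25.2%, 25.2% and 26.6% in WT and 15.0%, 9.46% and 34.9% in A10KO. The 3 WT ratios lay within 1.5 percentage points of each other, and all A10KO ratios lay outside their range, 2 below and 1 above.

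The c ring of the membrane part turns as protons pass and is encoded by Atp5g1, Atp5g2 and Atp5g3, which give the same mature protein. Atp5g3 stood at 1479.6, 1379.9 and 1472 TPM in WT and 1289, 1283 and 1386 TPM in A10KO (log2 change -0.13 ± 0.12, adjusted p = 0.783) and Atp5g1 at 616, 537 and 621 TPM in WT and 938, 655 and 581 TPM in A10KO (log2 change 0.27 ± 0.19, adjusted p = 0.741). Atp5g2, the lowest of the c ring genes and of the complex V subunits, stood at 52.8, 63.6 and 63.2 TPM in WT and 45.1, 40.5 and 67.1 TPM in A10KO (log2 change -0.26 ± 0.20, adjusted p = 0.754). Their sum varied little, at 2148, 1981 and 2156 TPM in WT and 2272, 1979 and 2034 TPM in A10KO. Within the sum Atp5g1 took 28.7%, 27.1% and 28.8% in WT and 41.3%, 33.1% and 28.6% in A10KO. Replicates 1 and 13 thus had a larger Atp5g1 share than any WT library, and replicate 14 lay within WT. The peripheral stalk holds the head still. Its members Atp5f1, Atp5h, Atp5j and Atp5o had log2 changes between -0.06 and 0.13, and Atp5h, whose promoter is printed above, stood at 610.2, 641 and 679.8 TPM in WT and 754, 837 and 548 TPM in A10KO. The membrane subunits Atp5j2, Atp5k and Atp5l had log2 changes between 0.01 and 0.16, and Atp5l was highest in replicate 13 at 796 TPM against 576 to 666 TPM elsewhere. Atp5s, known as factor B, a protein associated with the synthase, stood at 14.9, 37.9 and 14.6 TPM in WT and 11.1, 9.87 and 12.04 TPM in A10KO (log2 change -0.83 ± 0.35, adjusted p = 0.564, unadjusted p = 0.0477). It lies on GRCm38 chromosome 12, 69724950 to 69744660. All A10KO values were below WT, but WT replicate 2 was also more than 1.25-fold above every other library. Without WT replicate 2 the log2 change of Atp5s was -0.39.

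Members for which replicate 1 was at least 1.25-fold above every other library came from all 5 complexes. There were 11 (12.8%, against 3.63% of all tested genes and 3.42% of those whose mean reached 100 TPM): Ndufa5, Ndufa12, Ndufb10, Ndufs7, Ndufv2, Sdhd, Uqcrb, Cox5a, Cox7a2, Atp5d and Atp5g1. In replicate 13 only Ndufa10, Ndufs1 and Atp5b were above all others by that margin (3.49%, against 14.2% of all tested genes and 5.43% of those whose mean reached 100 TPM). The same count was 1 for WT replicate 2 (Atp5s), 1 for WT replicate 3 (Cox7a1), and 0 for WT replicate 1 and A10KO replicate 14. Each share over all genes comes from the same 6 libraries and is given for scale, without a test.

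Summed over subunits, the nuclear part of complex I stood at 9257, 9290.2 and 9431 TPM in WT and 9993, 7947 and 8751 TPM in A10KO. The nuclear part of complex III stood at 5266, 5034 and 5335 TPM in WT and 5976, 4489.8 and 4579.7 TPM in A10KO. In both, replicate 1 was above and replicates 13 and 14 below all WT libraries. Complex II summed to 1253, 1262 and 1305 TPM in WT and 1329.5, 1082 and 1108 TPM in A10KO, in the same order. Complex IV without the supercomplex factor stood at 10927, 11134 and 11321 TPM in WT and 12369, 10513 and 10798 TPM in A10KO. Complex V without factor B stood at 11528, 11626 and 11942 TPM in WT and 12758, 13506 and 10638 TPM in A10KO. Complex V was thus the only one for which replicate 13 lay above WT. Atp5b was the largest term of its sum in every library, at 3270.4 to 3543 TPM in WT and 5096 TPM in replicate 13. Over the 16 members of complex V, the median difference of replicate 13 from the WT mean was 0.03, with 8 above 0. The higher sum was thus not common to all its members. As shares of TPM outside mt- names, however, complex IV was also above WT in replicate 13, at 1.27% against at most 1.23% in WT, while complexes I, II and III stayed below WT there.

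Mitochondrially encoded subunits of the same complexes did not always follow the nuclear ones. In A10KO replicate 13 the nuclear sums of complexes I, III and IV lay below WT and the mitochondrial sums above it. The same held in replicate 14 for complexes I and III, whereas both sums of complex IV were below WT there. In replicate 1 both sums of complexes I and III were above WT. The complex I sum left out mt-Nd4l, listed at 0 TPM in all libraries but A10KO replicate 14 (238 TPM). The other 6 mitochondrial genes of complex I summed to 13891, 11491 and 13574 TPM in WT and 19287, 33267 and 17073 TPM in A10KO. All A10KO libraries exceeded WT, replicate 13 by most. The ratio of mitochondrial to nuclear complex I transcripts was 1.50, 1.24 and 1.44 in WT and 1.93, 4.19 and 1.95 in A10KO. For complex III the ratio was 1.16, 0.963 and 1.06 in WT and 1.22, 2.32 and 1.43 in A10KO, again without overlap. With mt-Co1 and mt-Co2 the complex IV ratio was 1.42, 1.63 and 1.38 in WT and 1.34, 2.15 and 1.25 in A10KO, with overlap. It left out mt-Co3, listed at no more than 0.29 TPM in any library. This ratio rested mainly on mt-Co1, at 13250 to 21967 TPM against 246 to 594 TPM for mt-Co2. The nuclear sums alone overlapped between the groups for both complex I and complex III. By limma 0 of the 10 tested mitochondrial subunits passed an adjusted p of 0.05, the median log2 change was 0.64, and 10 of 10 were highest in replicate 13, as were 31.5% of all tested genes. At an unadjusted p under 0.05, 6 of the 10 were higher (background 2.56%), and for 8 of the 10 all A10KO values lay above all WT values (background 5.61%). No sum was made for complex V because mt-Atp6 was listed at 0 in all libraries and mt-Atp8, which overlaps it, at 26556 to 74021 TPM. All transcripts with mt- names took 6.32% to 6.56% of TPM in WT and 7.93%, 14.7% and 7.37% in A10KO. With these transcripts removed and each library rescaled, the median log2 change of the nuclear members was -0.01, and their median difference from the WT mean was 0.08, -0.01 and -0.09 in A10KO replicates 1, 13 and 14. The members' median in replicate 13 was thus close to 0 on this scale. Over all tested genes outside mt- names the median there was 0.14, so the members stayed below it. Over those whose mean reached 100 TPM it was -0.05.

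**Figure D3:**
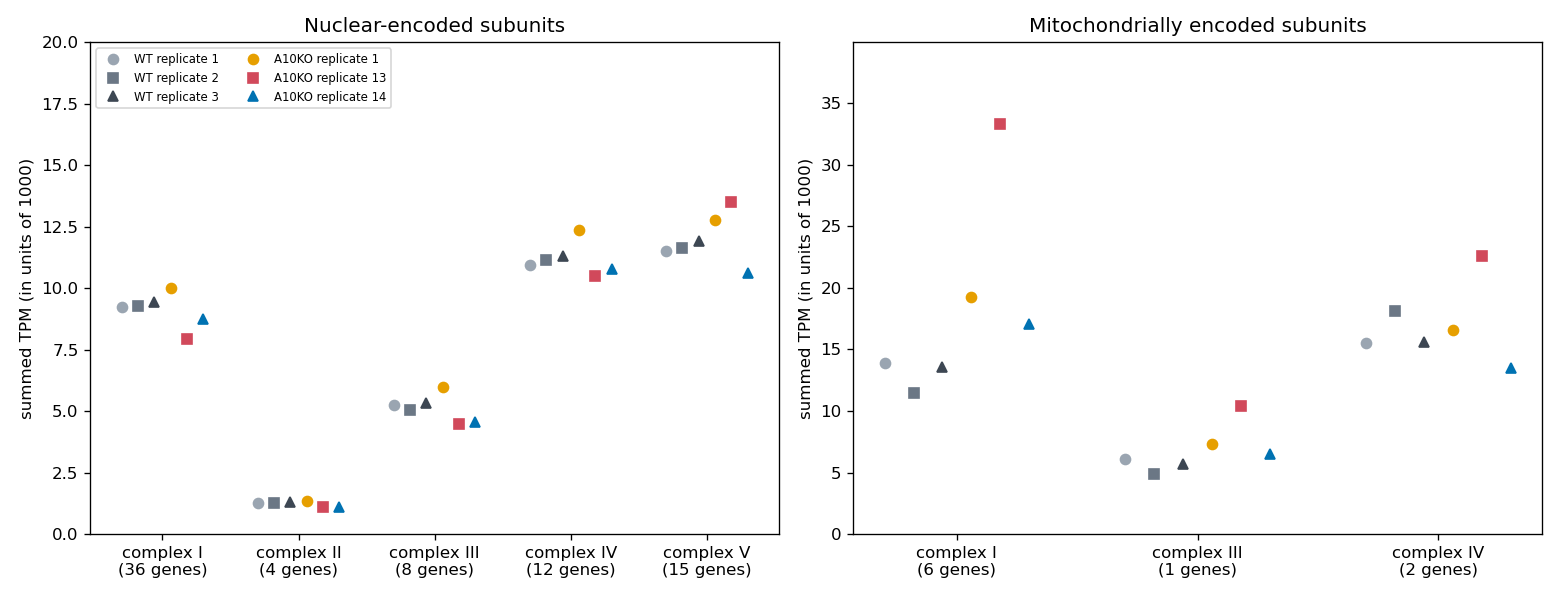
Summed TPM, with the axis in units of 1000, for nuclear (left) and mitochondrially encoded (right) subunits of each complex, with 1 point for each library. The right side leaves out mt-Nd4l, mt-Co3 and complex V. On the left the WT libraries of each complex lie close together, and the A10KO libraries spread more widely. On the right A10KO replicate 13 lies highest in each of the 3 complexes, at 33267 TPM for complex I.

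Genes outside the name rule that serve the same pathway were taken from lists. Of 43 tested assembly factors of complexes I to V, the median log2 change was -0.06, with 3 lower (6.98%, background 6.27%) and 1 higher (2.33%, background 2.56%) at an unadjusted p under 0.05 and 0 at an adjusted p of 0.05. The higher one was Sco2, a copper chaperone of complex IV, at 9.25, 7.34 and 7.98 TPM in WT and 12.8, 12.9 and 15.6 TPM in A10KO (log2 change 0.68 ± 0.17, adjusted p = 0.323). Its groups did not overlap. Among 16 electron carrier and ubiquinone synthesis genes the median was -0.10, with 1 lower (6.25%), Coq8b, which acts in ubiquinone synthesis, at 15.2, 19.0 and 14.8 TPM in WT and 8.61, 10.2 and 11.0 TPM in A10KO (log2 change -0.66 ± 0.18, adjusted p = 0.345). Cycs, the cytochrome c gene, stood at 164, 153 and 163 TPM in WT and 191, 224 and 155 TPM in A10KO, with overlap. Of 79 tested mitochondrial ribosomal protein genes the median was -0.04, with 4 lower (5.06%) and 0 higher at an unadjusted p under 0.05. These shares lie near or under the background.

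Of the 13 regulators of mitochondrial biogenesis, 3 lay at least 1.25-fold above every other library in replicate 13 (23.1%, against 14.2% of all tested genes). Ppargc1a, which encodes PGC-1alpha, stood at 16.1, 25.7 and 17.7 TPM in WT and 14.3, 117 and 10.2 TPM in A10KO (log2 change 0.42 ± 0.80, adjusted p = 0.898). In replicate 13 it was 4.58 times the highest other library, while replicates 1 and 14 lay below WT. Gabpa, which encodes the DNA-binding subunit of GABP, stood at 8.24, 11.0 and 8.63 TPM in WT and 7.77, 16.6 and 8.26 TPM in A10KO. The span of Gabpa overlaps that of Atp5j, a member at a far higher level, and reads from shared bases cannot be told apart. Gabpb1, which encodes the partner subunit in GABP, stood at 15.8, 16.7 and 17.4 TPM in WT and 14.2, 26.3 and 18.1 TPM in A10KO. Both GABP genes were highest in replicate 13, and their groups overlapped. Nrf1 stood at 30.6, 31.3 and 33.9 TPM in WT and 29.1, 35.1 and 34.5 TPM in A10KO. Esrra, a nuclear receptor that works with PGC-1alpha, stood at 87.8, 74.4 and 88.3 TPM in WT and 119.9, 82.6 and 66.2 TPM in A10KO. Nrf1 differed little between libraries, and Esrra was highest in replicate 1, as many members were. Over the 13 regulators the median log2 change was 0.09, with 1 higher (Pprc1, a PGC-1 related coactivator) and 1 lower (Tefm, a mitochondrial transcription elongation factor) at an unadjusted p under 0.05 and 0 at an adjusted p of 0.05. The 13 citric acid cycle genes had medians of 0.12, 0.40 and -0.22 in A10KO replicates 1, 13 and 14 relative to WT, and 10 of 13 were highest in replicate 13, against 31.5% of all tested genes. The members' own medians were 0.06, -0.14 and -0.10, with complex V at 0.03 in replicate 13.

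**Figure D4:**
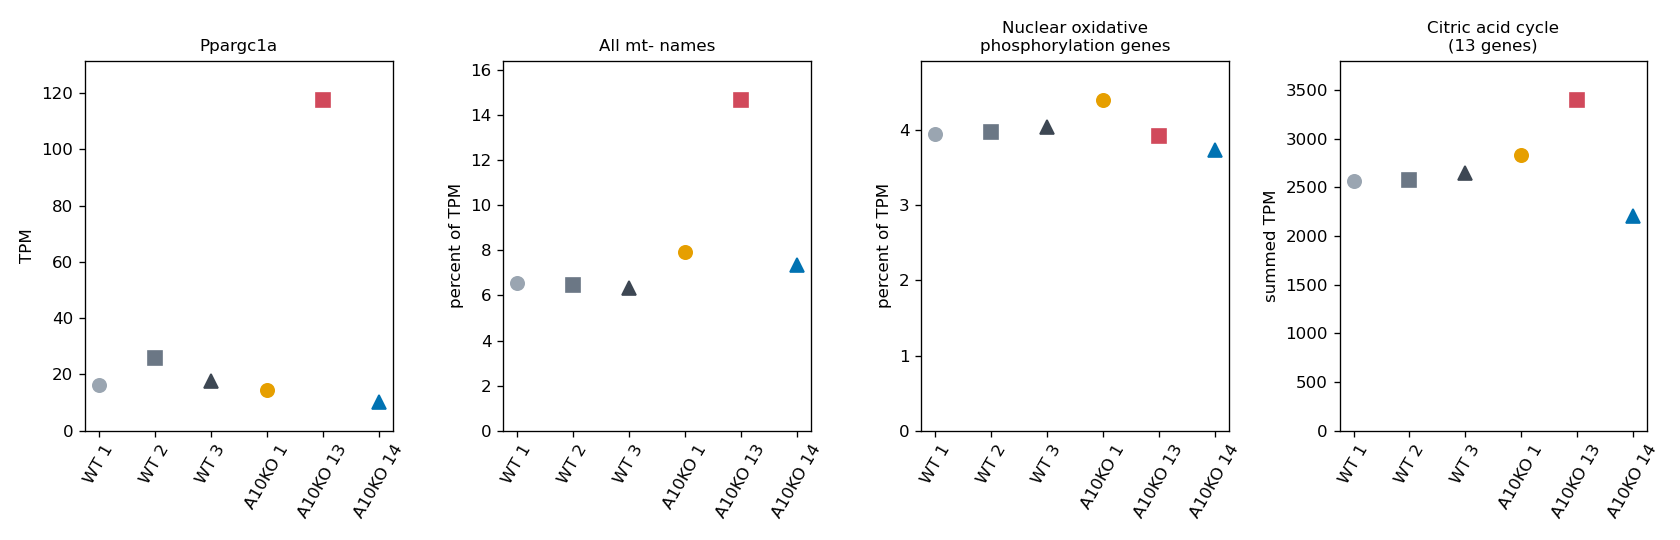
From left to right, for each of the 6 libraries: Ppargc1a in TPM, the percentage of TPM in all transcripts with mt- names, the percentage in the 86 nuclear oxidative phosphorylation genes, and the summed TPM of 13 citric acid cycle genes. A10KO replicate 13 stands highest in all panels but that of the nuclear genes, where it lies at 3.92%, below the 3 WT libraries, a direction that turns once mt- names are left out of the total (4.59%, against 4.23% to 4.32% in WT).

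Transcript length varied with the values of several libraries, replicate 13 among them. Length was taken from the longest of each gene's principal transcripts, where it had one. Some small subunits were thus given long transcripts, such as Ndufb2 at 4371 bases and Atp5g1 at 4715 bases, and which transcript was expressed was not determined. The median length was 932 bases for members and 2838 bases for all tested genes. In replicate 13, tested genes under 700 bases had a median difference from WT of -0.28, those of 700 to 1499 bases -0.23 and those of 1500 bases or more 0.07, on the log2 scale. For members in the same length classes the medians were -0.19, -0.13 and -0.10. Across genes, Spearman's rho of this difference against length was 0.20 for the 86 members and 0.34 for all tested genes with a length, as a description over genes that share libraries. The same rho for all tested genes was -0.18, 0.25 and -0.22 in the WT libraries, and for the members it was -0.28 in A10KO replicate 14. Values thus also varied with length in libraries other than replicate 13, but the WT rhos are not on the same measure. The part of length in the members' low values there was not tested.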

How the data were processed

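RNA was measured by sequencing in 3 WT and 3 A10KO libraries. The authors' deposited values are TPM (per gene, scaled by transcript length and library total), as read from the values, which carry decimals and sum to 969834 to 985045 per library. Each library's own table equals the series table in 6 of 6 cases, and 0 columns of per-sample values were left unused. The tools fastp, HISAT and RSEM and the build GRCm38.p5 are named in the submitters' processing notes. Not given in the sources used here are tool versions and roles, the strand setting, and how reads shared between a gene and its copies were assigned. The 7 pseudogenes with -ps names were listed at 0 in every library. The spans of 22 members overlap those of another tested gene, such as Cox4i1 with Emc8 and Ndufa2 with Tmco6. Without strand, reads from bases that both genes share cannot be told apart.

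The 12068 genes that reached 1 TPM in 3 or more libraries were fitted with limma (3.58.1, under R 4.3.3), taking log2(TPM + 1) as input, a mean-variance trend and Benjamini-Hochberg adjustment over all of them at a threshold of 0.05. The estimated prior degrees of freedom were 3.5. The scripts were tested on simulated data. With 3 libraries against 3, no two-sided exact permutation test of a single value can reach 0.05, and none is given. Locations and lengths came from GENCODE M21 on GRCm38, matched by identifier for 86 of 86 members. Promoter windows came from RefSeq on GRCm38.p6, with 71 members matched by symbol and the rest of the 74 by identifier or synonym. Members were tallied by complex, with values per library given for the highest and lowest of each complex, the lowest p-values, the isoform groups, the members nearest the TPM minimum and those with the largest spread. Other genes with values were chosen after these were seen. The values of 1 member are not reported, though it stays in counts, sums and medians. The members and lists were chosen with earlier results of these data known. Alternatives changed the pseudocount, filter, scaling and weights, and left out each library in turn, and trimmed means were unweighted, since TPM carries no counts.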

Additional observations from a re-analysis of the deposited data

How the results depend on the processing

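No paired analysis was possible because the groups share only replicate number 1. Under every setting run, 0 members passed an adjusted p of 0.05 by limma, and their lowest adjusted p ranged from 0.152 (without A10KO replicate 14) to 0.983 (without WT replicate 3). Over all tested genes the 5 calls became 3 under quantile normalization, 25 with array quality weights, and 1 to 20 with 1 library left out (2 to 8 with the tested genes kept, an alternative chosen after seeing the data). Members lower at an unadjusted p under 0.05, 2 as reported, were 0 after mitochondrial transcripts were removed and with median-of-ratios scaling, 1 with trimmed-mean scaling, 1 with no filter (23617 genes above 0 in any library), 6 with array quality weights, and 0 to 6 with 1 library left out (0 when WT replicate 2 was dropped, 6 and 4 for A10KO replicates 1 and 14). Members higher, 0 as reported, were 1 with no filter, 1 under median-of-ratios and trimmed-mean scaling, 2 under quantile normalization, and 0 to 2 with 1 library left out. The cause of these shifts was not tested. The members' median log2 change of -0.06 ranged from -0.08 to -0.01 under other settings and from -0.15 to -0.02 with 1 library left out. The complex IV median of -0.03 reached 0.03 under other scalings and ranged from -0.12 (without A10KO replicate 1) to 0.05 (0.047, without A10KO replicate 13), and that of complex V, 0.02, ranged from -0.07 to 0.07. Medians of complexes I, II and III stayed below 0. These scalings moved the median of all tested genes from -0.04 to about 0.01. Of 420 values of the single genes named by rule, 419 kept their direction, whatever their size, or changed sign by less than 1 SD of the A10KO libraries. The other was Atp5g3, from -0.13 to 0.01 under quantile normalization. This is a loose rule, since that SD was often larger than the change itself. Of 200 values of the counts and medians under the same settings, 36 moved beyond the limits set for them. Genes whose sign changed under at least 1 setting were Atp5b, Cox4i1, Cox6a1, Cox6b1, Cox7a2, Cox7a2l, Cox8a, Uqcrc2 and Atp5g3, none of which passed an adjusted p of 0.05. Unknown depth limits what can be said of low members such as Atp5sl and Cox7a1.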
